A study of Mus musculus with 12 samples.

Results

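Potassium channels are described here as all 95 genes whose symbol begins with Kcn, among the 22609 genes counted in RNA of tongue-innervating trigeminal ganglion (TG) neurons from male and female mice with or without a tongue tumor. The symbol alone decided which genes are members, with no measured value, although the family itself was taken up with earlier results of these data known. The genes fall into 22 subfamilies by the letters that follow Kcn. All animals were Balb/c athymic nude mice aged 6 to 8 weeks, a strain that lacks mature T cells. In male tumor (MT) and female tumor (FT) mice, the tongue was injected with cells of HSC3, a line derived from a human squamous carcinoma of the mouth. Male normal (MN) and female normal (FN) mice did not receive them. The labels give no cells for normal animals while the methods name normal human keratinocytes of the mouth, and this was not settled. All mice received WGA-488, a fluorescent lectin that nerve endings take up and carry back to the cell body, in the tongue on day 13, and labelled cells were sorted from the ganglia on day 15 without any marker for neurons. A normal sample pooled 4 ganglia of 2 mice, a tumor sample pooled 4 ganglia of 4 mice taken from the tumor side, and each of the 4 groups had 3 samples, so the p-values measure the spread between pools of mice. Tumor and normal groups therefore differed also in the number of mice pooled and the side taken, which cannot be told apart from the tumor.

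Potassium channels let potassium leave or enter the cell along its gradient, set the resting potential and end the action potential, and so bear on how readily a sensory neuron fires. Voltage-gated pores (Kcna, Kcnb, Kcnc, Kcnd, Kcnh, Kcnq) assemble as tetramers and can include silent subunits (Kcnf, Kcng, Kcns, Kcnv) that form no channel by themselves, and accessory proteins (Kcnab, Kcne, Kcnip) tune them. Inward rectifiers (Kcnj) pass current near rest and in ganglia are known from satellite glia and vascular cells as well as neurons, tandem-pore channels (Kcnk) carry background current, and a further group opens with calcium or sodium inside the cell (Kcnma with its Kcnmb partners, Kcnn, Kcnt; Kcnu is known from sperm).

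Reads assigned to genes ran from 4592891 to 8922011 per library, and levels between libraries are given as CPM, the counts scaled to the same total of such reads in each library. All 13 sensory neuron markers had reads in all 12 libraries, and their summed level was 13701 to 25589 CPM. The libraries FN2, FT2 and FT3 (each named by its group and replicate) stood apart: their highest Spearman correlations with any of the other 9 libraries were 0.85, 0.811 and 0.908, against at least 0.971 among those 9, and 56.0%, 68.4% and 52.6% of their reads mapped to several places, against 43.0% to 45.5%. Of the 75 Kcn genes with enough reads for a test, 49 lay below the range of the 9 libraries in FN2 (65.3%, against 49.9% of all genes tested), 34 in FT2 (45.3% against 53.1%) and 40 in FT3 (53.3% against 41.2%). Within the neuron sum, markers moved apart in FN2, FT2 and FT3. Trpv1 had 11.35, 5.44 and 35.1 CPM there against 150 to 263 CPM in the other 9, and Pirt 485, 732 and 968 against 1667 to 2070. Avil and Scn10a were also below the 9 in all of them. Tubb3, Calca, Tac1, Prph, Isl1 and Pou4f1 were above the 9 in FN2 and FT3, but not in FT2. The summed level of 10 macrophage markers was 16.3 to 28.1 CPM in MN, 10.7 to 180 in MT, 111 to 266 in FN and 155 to 315 in FT, with Fcgr3 at 0 in some libraries, and that of 6 satellite glia markers, none at 0 anywhere, was 4433 to 5438, 3802 to 5348, 8654 to 17299 and 7008 to 18985 CPM.

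Pore-forming Kcn genes share the selectivity filter, the short stretch of the pore loop that admits potassium. The coding sequences of GENCODE M1 (mouse build mm9, the build of the counts) were read in frame, on the coding strand only, for 5 codons in a row: threonine or serine, then valine, isoleucine, leucine or threonine, then glycine, then tyrosine, phenylalanine or leucine, then glycine, each by any of its codons. The longest coding sequence of each gene was used, also where its start is not annotated. Of 94 Kcn genes with a coding sequence, 77 held a match, against 259 of 20122 other genes (1.29%; 1.66% of all genes). All 15 inward rectifiers matched, as did all 10 silent subunits and all 30 voltage-gated pores, and all 14 tandem-pore genes matched at 2 positions. None of the accessory subunits (Kcnab, Kcne, Kcnip, Kcnmb) held a match. The windows of 11 genes described below are given to show the filter in each kind of pore gene, with the filter codons in capitals and 6 bases on either side; each lies in a coding exon, and the first window of Kcnk18 spans an intron.
Kcnt1, chr2:25749881-25749907, plus strand, exon 11 of 32: ttctcaACTGTGGGCTTCGGTgatgtg
Kcnn1, chr8:73374550-73374576, minus strand, exon 5 of 10: ttcttgTCCATTGGCTATGGAgacatg
Kcna1, chr6:126592240-126592266, minus strand, exon 2 of 2: atgaccACTGTGGGATACGGTgacatg
Kcna2, chr3:106908136-106908162, plus strand, exon 3 of 3: atgacaACTGTAGGCTATGGAgacatg
Kcnb2, chr1:15700121-15700147, plus strand, exon 2 of 2: atgaccACTGTGGGCTACGGTgacatt
Kcnv1, chr15:44940829-44940855, minus strand, exon 3 of 3: atgactACAGTAGGATATGGGgacatt
Kcng4, chr8:122149804-122149830, minus strand, exon 3 of 3: atgacgACCGTGGGCTATGGGgacatg
Kcnj10, chr1:174299427-174299453, plus strand, exon 2 of 2: cagaccACCATCGGCTATGGCttccgc
Kcnj8, chr6:142514962-142514988, minus strand, exon 3 of 3: caagtgACCATTGGGTTTGGAgggaga
Kcnj3, chr2:55290032-55290058, plus strand, exon 2 of 4: gaggccACCATCGGCTATGGCtaccgc
Kcnk18 first window, chr19:59300017-59309313, plus strand, exons 2 and 3 of 3: ttcagcACAGTGGGTTATGGCcacatg
Kcnk18 second window, chr19:59309911-59309937, plus strand, exon 3 of 3: ctgaccACCATCGGGTTTGGGgacatc
The silent subunits Kcnv1 and Kcng4 carried the filter codons although they form no channel by themselves.

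Most of the family was transcribed in normal male TG neurons. Divided by exon length (RPKM, which scales CPM to a kilobase of exon), 60 Kcn genes had a mean over 1 in MN, 33 over 5 and 15 over 20. Kcne1 and Kcnj1 had no read in any library, which allows up to 0.033 CPM over all 12, and Kcne2, Kcnh4, Kcnj5, Kcnk15, Kcnk9 and Kcnmb3 had at most 3 reads in any library; such limits cover counting error only. Accessory subunits led: Kcnab2, a cytoplasmic β subunit of Kcna channels, had 163 ± 12.8 RPKM (SD, n = 3, as for the other levels of this paragraph) and Kcnab1 19.7 ± 2.05. The Kcnip genes encode calcium-binding partners of Kcnd channels, with 99.35 ± 6.03 RPKM for Kcnip4, 35.75 ± 3.23 for Kcnip3, 25.6 ± 1.16 for Kcnip2 and 5.94 ± 0.59 for Kcnip1. No Kcne gene reached 1 RPKM.

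Kcnt1, the sodium-activated channel Slack, had the highest mean level of the pore genes at 42.5 ± 0.95 RPKM. Kcns3, a silent partner of Kcnb channels, followed at 39.4 ± 1.31, Kcnk1, a weakly conducting background channel, at 38.0 ± 5.39, Kcna1, a low-threshold channel that limits repetitive firing, at 36.7 ± 2.62 and Kcnd1, the A-type pore, at 34.5 ± 4.61; neighbours in this order from Kcns3 to Kcnd1 differed by less than the sum of their SDs. Of the remaining voltage-gated pores, the delayed rectifier Kcnb2 had 23.1 ± 2.65 RPKM, the fast-inactivating Kcnc4 21.9 ± 1.47, Kcna6 20.35 ± 2.18, the ERG-type Kcnh6 15.7 ± 1.32, and Kcna2 11.6 ± 0.23, and Kcnh2 7.95 ± 1.19, Kcnc2 5.44 ± 0.30 and Kcnd3 1.74 ± 0.49 were lower. The A-type pore Kcnd2 had 0.09 ± 0.02 RPKM. The silent Kcns1 had 23.7 ± 2.56 RPKM, Kcnv1 6.76 ± 0.24, Kcnf1 5.95 ± 0.90, Kcng2 5.13 ± 0.65 and Kcng4 3.64 ± 1.38.

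Among tandem-pore genes, Kcnk18 (TRESK, a background channel known from trigeminal neurons) had 21.85 ± 1.66 RPKM, Kcnk12 10.4 ± 0.15, and the mechanosensitive Kcnk4 and Kcnk2 10.2 ± 1.14 and 5.35 ± 1.15. Of the calcium-activated group, Kcnmb1, an accessory subunit of the large-conductance channel, had 21.8 ± 0.89 RPKM, its pore Kcnma1 3.88 ± 0.77 and Kcnmb2 3.35 ± 0.25. The small-conductance Kcnn1 had 18.1 ± 0.99 RPKM, Kcnn2 4.29 ± 0.15 and Kcnn3 0.26 ± 0.11, and Kcnn4, the intermediate-conductance channel that is also known from immune cells, 7.91 ± 0.70. Inward rectifiers were low in comparison: Kcnj10, the channel of satellite glia, had 9.39 ± 1.37 RPKM, Kcnj12 2.09 ± 0.40, Kcnj4 1.91 ± 0.21, Kcnj8 1.24 ± 0.10 and the G-protein-gated Kcnj3 0.82 ± 0.11. The dot plot of levels by role shows these orders.

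**Figure D1:**
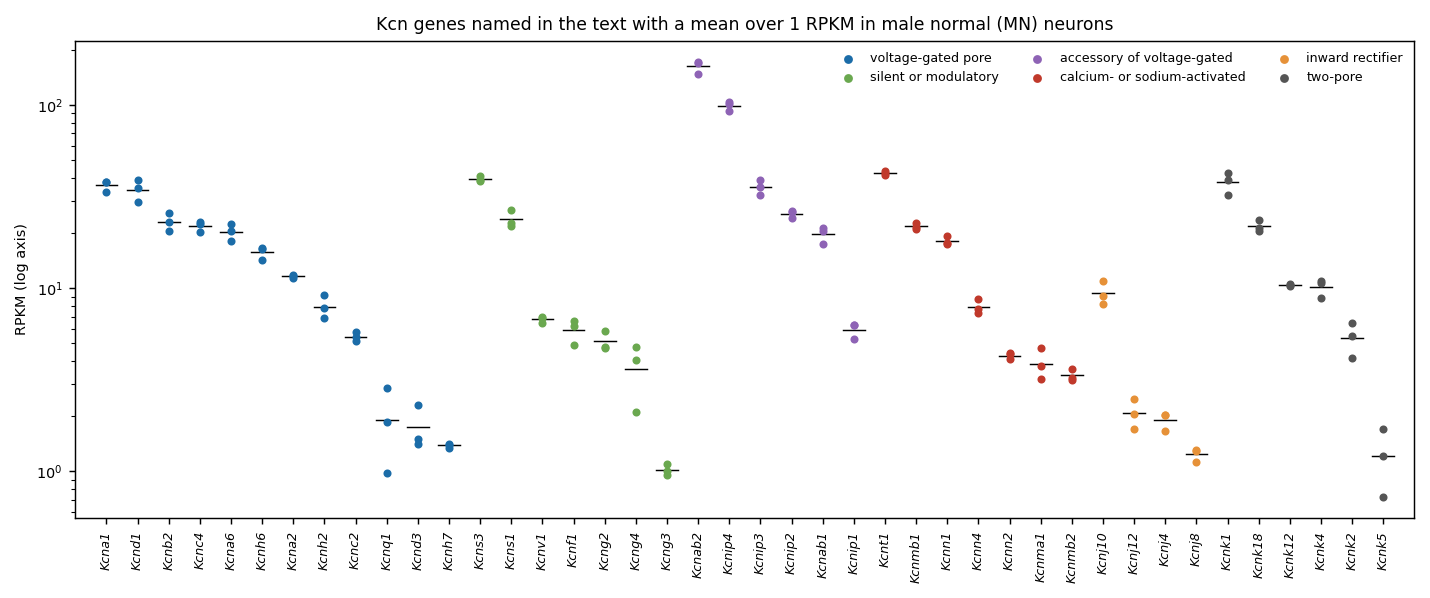
RPKM (log axis) in normal male TG neurons of the Kcn genes named in the text that had a mean over 1, ordered within role; each dot is 1 of the 3 MN libraries and the bar is their mean. Kcnab2 lies highest at a mean of 163 and the inward rectifiers reach at most 9.39 (Kcnj10).

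Summed over all 95 genes, Kcn reads made up 3958, 4160 and 4098 CPM in MN and 3726, 3757 and 3500 CPM in MT. All 3 MT libraries lay below the MN libraries, with a ratio of means of 0.9. In FN the sum was 3601, 1639 and 3629 CPM, and in FT 3503, 3874 and 1980 CPM, so that FN lay below MN (ratio 0.73) and FT overlapped both FN and MT. No p is given for a sum, because the family was taken up with earlier results known.

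By subfamily, MT lay below MN without overlap in Kcnb (ratio of means 0.77), Kcnk (0.88), Kcnn (0.83) and Kcnt (0.7), and in no subfamily above. Of all single genes tested, 7.45% had every MT library below every MN library, and 10.4% every FN library below every MN library. No such share was computed for sums. The sums are of CPM without TMM, the scaling of libraries used in the fits. The TMM factors were 1.039 to 1.064 in MN and 1.007 in MT1. Divided by them, the Kcnk and Kcnn sums of MT1 no longer lay below those of all MN libraries. The Kcnip sum of FT2 (factor 0.7751) likewise no longer lay below those of all MT libraries (1.007 to 1.077). Kcnt, nearly all of it Kcnt1, had 324, 331 and 317 CPM in MN and 227, 194 and 263 CPM in MT. The whole calcium- or sodium-activated group summed to 553 to 582 CPM in MN and 400 to 482 CPM in MT, and the voltage-gated pores to 1236 to 1273 and 987 to 1174 CPM. FN lay below MN in Kcna (0.7), Kcnb (0.72), Kcnd (0.52), Kcnk (0.78), Kcnq (0.71), Kcns (0.66), Kcnt (0.5) and Kcnv (0.58), and above it in Kcne (1.58), which had 3.47 to 5.16 CPM in MN and 5.53 to 9.0 CPM in FN. In no subfamily did FT lie wholly above or below FN. FT lay above MT in Kcnj (ratio 2.07, with 65.3 to 77.5 CPM in MT and 126 to 173 CPM in FT) and in the rare Kcnrg, at 0 in all MT libraries, and below it in Kcnd (0.43), Kcnip (0.74) and Kcnv (0.5). The Kcnj sum was also high in FN1 and FN3, at 130.0 and 133 CPM, but not in FN2 at 70.7 CPM. In Kcnd, whose reads came mostly from the X-linked Kcnd1, FN2, FT2 and FT3 had 16.3, 45.5 and 31.9 CPM against 134 to 159 CPM in the other female libraries.

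**Figure D2:**
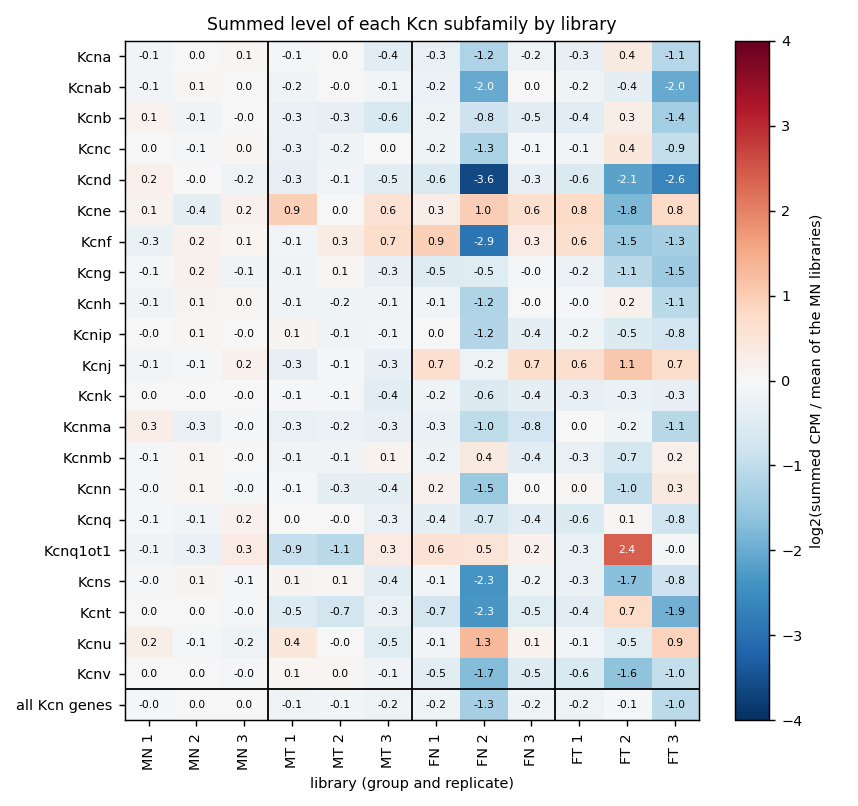
Colour gives the log2 ratio of each library's summed CPM to the MN mean for 21 Kcn subfamilies (Kcnrg left out) and for all Kcn genes together, with the 12 libraries in columns. Kcnt is below 0 in all 3 MT libraries (-0.51, -0.74 and -0.30), and Kcnd is lowest in FN2 (-3.62), FT3 (-2.65) and FT2 (-2.14).

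MT versus MN asks how lingual neurons of tumor-bearing males differed from those of normal males. Kcnt1 and Kcnn4 had the smallest p-values of the 74 Kcn genes tested, both lower in MT. Kcnt1 had 321, 327 and 313 CPM in MN and 225, 192 and 259 CPM in MT. The groups did not overlap, the log2 difference was -0.49 (SE 0.11) and the level was 1.41-fold lower in MT, with an adjusted p = 0.258 by edgeR. Kcnn4 had 19.4, 22.0 and 18.6 CPM in MN and 11.95, 9.86 and 13.2 CPM in MT. These groups did not overlap either, and the level was 1.69-fold lower in MT (log2 -0.76, SE 0.17, adjusted p = 0.327 by edgeR). The summed macrophage markers, which also mark cells known to express Kcnn4, were 16.3 to 28.1 CPM in MN and 10.7, 17.9 and 180 CPM in MT1 to MT3.

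No Kcn gene had an adjusted p under 0.05 by edgeR's quasi-likelihood test (background 0.045% of 13322 genes), while 8 had an unadjusted p under 0.05. DESeq2 called 1, Kcnt1 (adjusted p = 0.0187, background 0.383%), limma-voom called 0 (background 0.34%), and edgeR without MT replicate 3 called Kcnt1 as well (log2 -0.58, adjusted p = 0.0348, background 0.253%). Over all 14 alternative fits its log2 difference ran from -0.60 to -0.39 and its adjusted p from 0.0187 to 1. By the looser criteria that the study used apart from its RPKM minimum, an unadjusted p under 0.05 and a fold change over 1.5, Kcnn4 was the single call (background 2.3%; 0.781% in the lower direction). Counts by these criteria were 3, 2, 4 and 4 without MN replicate 1, MN replicate 2, MT replicate 1 and MT replicate 3. The backgrounds in this order were 1.84%, 2.12%, 3.68% and 3.92%. Kcnn4 was called in 12 of the 14 alternatives and lost in the fits that shared the spread over 12 or 10 libraries.

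Without the fold limit, the 8 Kcn genes with an unadjusted p under 0.05 were 10.8% of the 74 (background 6.92%), and 7 of them were lower. Besides Kcnt1 and Kcnn4 these were the delayed rectifier Kcnb2 (log2 -0.46, SE 0.14), the A-type pores Kcnd1 (-0.32, SE 0.14) and Kcnc4 (-0.34, SE 0.14), the β subunit Kcnab1 (-0.30, SE 0.13), Kcnk18 (-0.28, SE 0.12) and, higher in MT, Kcnip1 (0.32, SE 0.12); their adjusted p ran from 0.493 to 0.707 by edgeR. Kcnb2 had 105, 83.5 and 93.5 CPM in MN and 72.2, 73.1 and 57.5 CPM in MT. Kcnk18 had 71.85, 62.1 and 64.8 CPM in MN and 54.7, 58.1 and 49.1 CPM in MT. Kcnip1 had 32.6, 39.0 and 38.9 CPM in MN and 43.8, 46.3 and 46.3 CPM in MT. In these 3 genes the groups did not overlap. Every MT library was below every MN library in 9 Kcn genes (12.2%, background 7.45%), Kcna2, Kcnb2, Kcnip2, Kcnj3, Kcnj4, Kcnk12, Kcnk18, Kcnn4 and Kcnt1, and above in 2 (2.7%, background 5.91%), Kcnip1 and Kcnn2.

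Fitted differences leaned lower. They were below 0 in 51 of 74 Kcn genes (68.9%, background 49.4%) with a median log2 difference of -0.09, against 0 over all genes tested. By role, 18 of 25 voltage-gated pores were below 0, 6 of 9 silent subunits, 6 of 10 accessory subunits, 6 of 10 inward rectifiers, 7 of 9 tandem-pore genes and 7 of 10 of the calcium- or sodium-activated group. Kcna1 was an abundant pore that did not lean this way in all libraries, with 302, 343 and 343 CPM in MN and 377, 328 and 202 CPM in MT, which overlapped. In sorted cells measured in bulk, fewer cells of a type and less RNA per cell cannot be told apart.

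**Figure D3:**
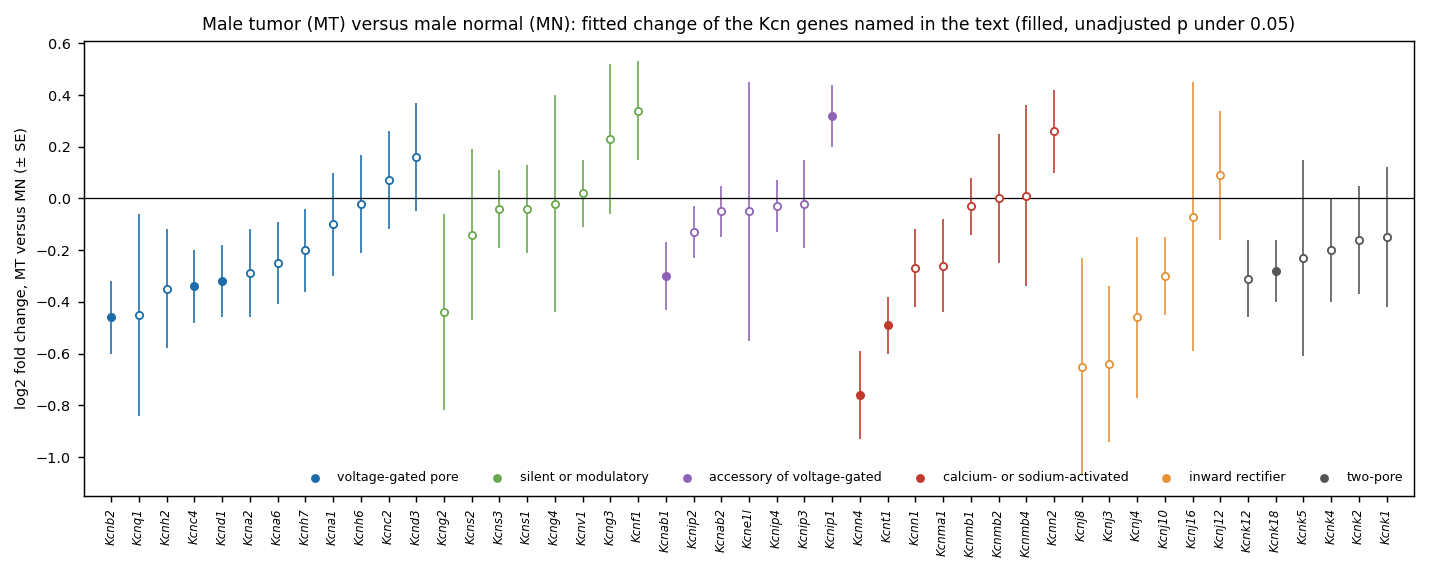
Fitted log2 difference, MT minus MN, with its standard error for the tested Kcn genes named in the text, by role (Kcnq1ot1 not drawn); filled points had an unadjusted p under 0.05 by edgeR. Filled points lie below 0 except Kcnip1 (0.32), and Kcnn4 is lowest of them at -0.76.

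FN versus MN asks how normal lingual neurons of the sexes differed, and the sex chromosomes were not tested here, which removes Kcnd1 and Kcne1l. The calls depended on the library FN2, so values with and without it are given. With all 6 libraries, the log2 differences were 0.62 (SE 0.41) for Kcnj10, 0.49 (SE 0.31) for Kcnn4, -1.09 (SE 0.58) for Kcna2 and -0.39 (SE 0.23) for Kcna1, each with an adjusted p = 0.631 by edgeR; those without FN2 follow gene by gene. In FN1 and FN3, the satellite glia channel Kcnj10 and the intermediate-conductance Kcnn4 were higher than in all MN libraries, while Kcnt1, Kcna2 and Kcna1 were lower. In FN2 the last 3 were lower still, and Kcnj10 and Kcnn4 were below every MN library.

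Kcnj10 had 44.3, 49.2 and 58.9 CPM in MN and 100.3, 26.5 and 106 CPM in FN1 to FN3. FN1 and FN3 lay above all MN libraries and FN2 below them. Without FN2 the level was 1.96-fold higher in FN (log2 0.97, SE 0.13, adjusted p = 0.00109 by edgeR). The 6 other satellite glia markers summed to 4433 to 5438 CPM in MN and to 8697, 17299 and 8654 CPM in FN1 to FN3, so FN2 had the highest sum and the lowest Kcnj10; their part in the result was not tested. Kcnn4 had 37.8, 13.4 and 30.5 CPM in FN, on both sides of the 18.6 to 22.0 CPM of MN. Without FN2 it was 1.65-fold higher (log2 0.72, SE 0.16, adjusted p = 0.0198 by edgeR). Of the macrophage markers, all 9 tested had an adjusted p under 0.05 by edgeR and were higher in FN without FN2. Their sums were 266 and 111 CPM in FN1 and FN3, and 147 CPM in FN2, where Kcnn4 was lowest. The part of these markers was not tested.

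Kcnt1 had 193, 64.8 and 226 CPM in FN against 313 to 327 CPM in MN. All 3 FN libraries were lower, 1.96-fold with FN2 (log2 -0.97, SE 0.37, adjusted p = 0.631 by edgeR) and 1.59-fold without it (-0.66, SE 0.10, adjusted p = 0.00247). Kcna2, the partner of Kcna1 at the juxtaparanodes of myelinated axons, had 40.9, 40.35 and 39.4 CPM in MN and 26.9, 3.26 and 27.1 CPM in FN. The groups did not overlap, and without FN2 the level was 1.54-fold lower (log2 -0.62, SE 0.13, adjusted p = 0.0163 by edgeR). Kcna1 had 266, 182 and 262 CPM in FN against 302 to 343 CPM in MN, 1.29-fold lower without FN2 (log2 -0.37, SE 0.10, adjusted p = 0.0389 by edgeR).

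Over all 6 libraries, edgeR gave no Kcn gene of 72 an adjusted p under 0.05 (background 0.0%), with 4 at an unadjusted p under 0.05 (5.56%, background 5.8%). DESeq2 called 0 (background 0.527%), with 7 at an unadjusted p under 0.05 (background 8.92%), and limma-voom, run with weights that count less for libraries far from the rest, called 6 (background 5.99%), Kcnj10, Kcnt1, Kcnn4, Kcna2 and Kcnv1 among them. The 4 genes of edgeR also passed the fold limit (5.56%, background 5.73%), all lower in FN (background 0.861%): Kcnt1, the G-protein-gated Kcnj3 (log2 -1.17, SE 0.42) and the silent subunits Kcnv1 (-0.74, SE 0.28) and Kcng4 (-1.13, SE 0.48), each with an adjusted p = 0.631 by edgeR. Kcnv1 had 31.2, 30.8 and 29.15 CPM in MN and 22.25, 9.13 and 21.5 CPM in FN. Kcnj3 had 4.92, 3.81 and 4.13 CPM in MN and 2.51, 0.78 and 2.19 CPM in FN. Neither overlapped, whereas Kcng4 did, with 8.01, 18.2 and 15.4 CPM in MN and 9.68, 2.35 and 6.57 CPM in FN. Leaving out libraries lost the call of Kcnt1 (MN1, MN2, MN3 or FN1), Kcnj3 (MN1, MN2, MN3 or FN3), Kcnv1 (MN1, MN2, MN3 or FN2) and Kcng4 (MN2, MN3 or FN3). The count was 1, 0 and 0 when MN replicates 1, 2 and 3 were dropped (backgrounds 2.42%, 1.94% and 3.12%). It was 7 when FN1 was dropped and 9 when FN2 was dropped (background 8.66% for each).

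Without FN2, 6 Kcn genes had an adjusted p under 0.05 by edgeR (8.33%, background 5.53%), 2 higher (2.78%, background 3.98%) and 4 lower (5.56%, background 1.55%), with Kcnj10, Kcnn4, Kcnt1, Kcna2 and Kcna1 among them. With an unadjusted p under 0.05, 21 passed (29.2%, background 20.4%), 3 higher and 18 lower, and 9 of them also passed the fold limit (background 8.66%), among them Kcnk18 (log2 -0.61, SE 0.18; -0.23, SE 0.36 with FN2) and, higher in FN, the silent subunit Kcnf1 (0.61, SE 0.18; 0.11, SE 0.69 with FN2). A fit of the 9 libraries other than FN2, FT2 and FT3 called 2 at an adjusted p under 0.05 by edgeR (background 0.391%), Kcnj10 (log2 0.97, adjusted p = 0.0309) and Kcnt1 (-0.67, adjusted p = 0.0461).

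With all 6 libraries, every FN library was below every MN library in 17 Kcn genes (23.6%, background 10.4%) and above in 0 (background 9.71%). Those below included the pores Kcna1, Kcna2, Kcnc4 and Kcnh7, the silent Kcns3 and Kcnv1, the accessory Kcnab1, Kcnip2 and Kcnip3, the tandem-pore Kcnk1, Kcnk4, Kcnk12 and Kcnk18, and Kcnj3, Kcnn1 and Kcnt1. The median log2 difference was -0.26 over the Kcn genes against 0.06 over all genes tested. Without FN2, 21 were below (29.2%, background 14.0%) and 8 above (11.1%, background 23.2%), with medians of -0.21 and 0. Markers of the cell types moved beside them. Without FN2, the 13 sensory neuron markers had a median log2 difference of -0.27, with 3 lower at an adjusted p under 0.05 by edgeR, and Nefh and Scn10a passed the unadjusted p and fold limits; with FN2 the median was -0.04. Their summed level was 17606 to 19388 CPM in MN and 16159, 25589 and 17270 CPM in FN1 to FN3. Of this sum, Calca alone had 11272 CPM in FN2 against 3295 to 4265 CPM in MN. All 8 endothelial markers passed the unadjusted p and fold limits and were higher without FN2, with a median of 0.95. The part of these markers in the lower Kcn levels was not tested.

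**Figure D4:**
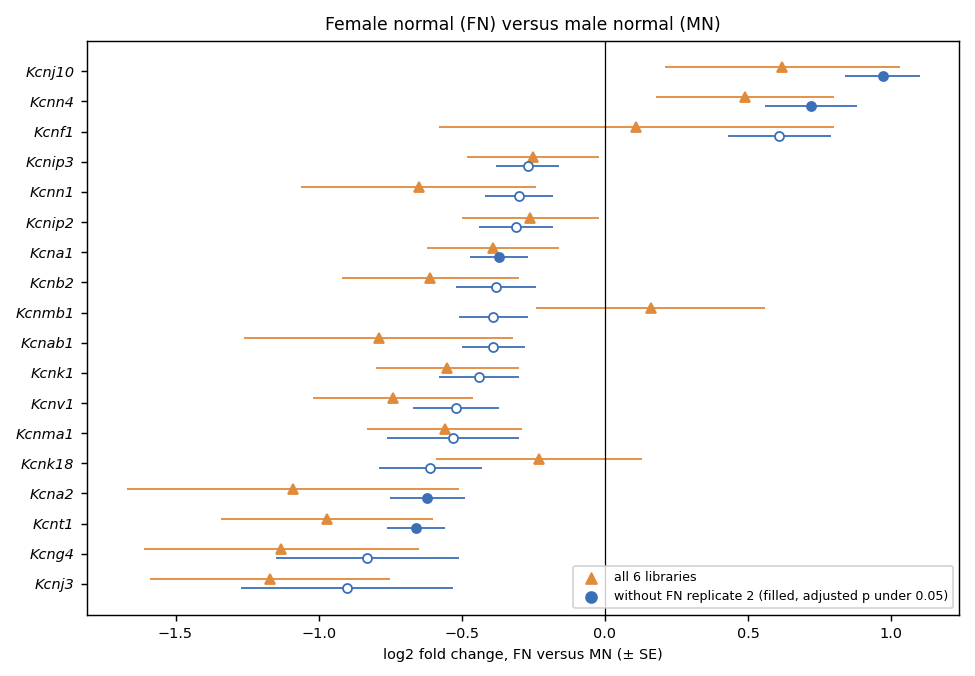
Fitted log2 difference, FN minus MN, with its standard error for the Kcn genes named in the text with an unadjusted p under 0.05 with or without FN2; triangles use all 6 libraries, circles leave out FN2 and are filled where the adjusted p was under 0.05 by edgeR. Kcnj10 and Kcnn4 lie above 0 without FN2 (0.97 and 0.72), and their errors are wider with it.

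**Figure D5:**
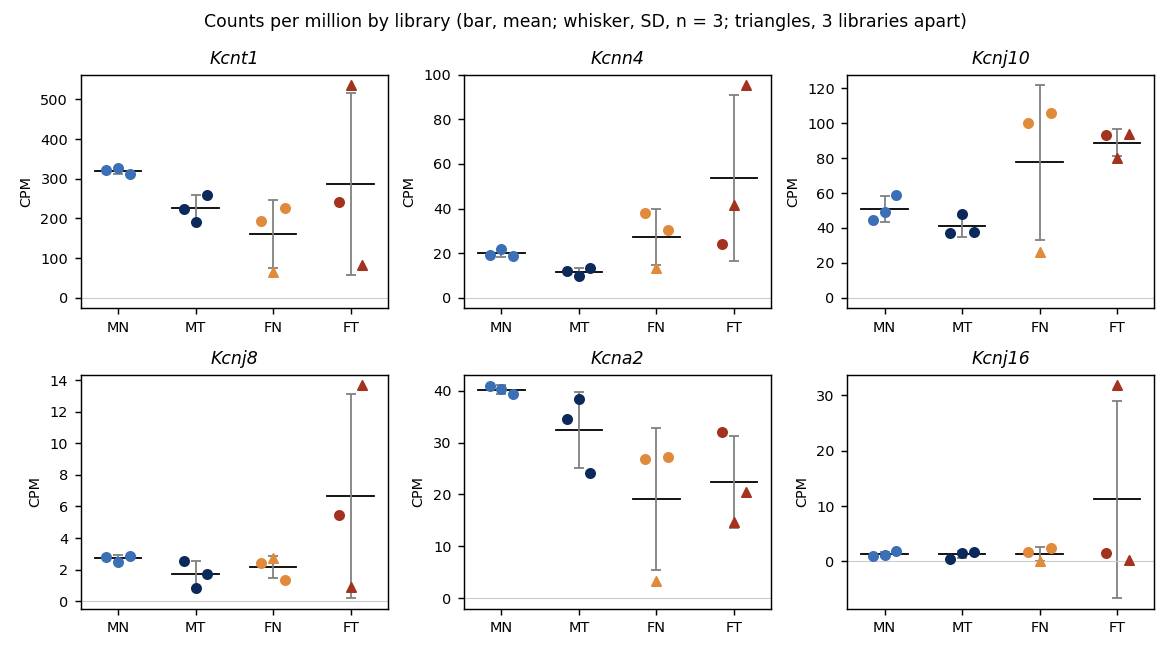
CPM of 6 Kcn genes in each library by group; dots are libraries, triangles mark FN2, FT2 and FT3, bars are means and whiskers SD (n = 3). MT lies below MN in Kcnt1 and Kcnn4, and single libraries that stand apart carry the high values of Kcnj16 (FT2) and of Kcnn4 and Kcnj8 (FT3).

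FT versus FN asks the same in females. None of the 74 Kcn genes tested had an adjusted p under 0.05 by edgeR (background 0.0%) and 2 had an unadjusted p under 0.05 (background 1.19%). DESeq2 and limma-voom called 0 as well, with 1 (background 2.1%) and 2 genes (background 4.08%) at an unadjusted p under 0.05. The 2 genes of edgeR also passed the fold limit (2.7%, background 1.19%), both higher in FT (background 1.16%). Kcnj16, which pairs with Kcnj10 in glia and epithelia, had 1.63, 0 and 2.33 CPM in FN and 1.51, 31.8 and 0.28 CPM in FT. FT2 alone was far above FN, and the other FT libraries overlapped FN. The fitted log2 difference was 3.41 (SE 1.43), with adjusted p = 1 by edgeR, and the call was lost without FN replicate 2 (2.99). Without FT replicate 2 Kcnj16 was not called, at -0.51, and the single gene by these criteria was Kcnj8 (background 0.315%), while without FT replicate 1 there were 5 (background 5.49%).

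Kcnj8 is the pore of the ATP-sensitive channel of pericytes and vascular smooth muscle. It had 2.39, 2.74 and 1.37 CPM in FN and 5.49, 0.87 and 13.7 CPM in FT, above FN in FT1 and FT3 and below it in FT2. Its partner Abcc9, also a pericyte marker, had the same order in FT, at low levels of 3.57, 0.44 and 4.88 CPM. Among the other pericyte and smooth muscle markers only Acta2 had this order. Rgs5, Pdgfrb, Tagln, Myh11 and Notch3 were highest in FT1, and Cspg4 in FT2 (28.1 CPM against 4.66 and 3.76). The 8 summed pericyte and smooth muscle markers (Kcnj8 left out, none at 0) were 230, 142 and 300 CPM in FN and 278, 122 and 233 CPM in FT; their part in the result was not tested. Every FT library was above every FN library in 0 Kcn genes (background 1.14%) and below in 1, the silent subunit Kcns2 (1.35%, background 1.15%). The median log2 difference was 0.13, against -0.03 over all genes tested. Kcnt1, lower in MT than MN, had 241, 536 and 83.8 CPM in FT against 64.8 to 226 CPM in FN, which overlapped. The supplement of the study lists Kcnn4 among the genes upregulated in FT versus FN. Here Kcnn4 was not called, at a log2 difference of 1.17 (SE 0.64, unadjusted p = 0.0888 by edgeR). It had 37.8, 13.4 and 30.5 CPM in FN and 24.0, 41.4 and 95.2 CPM in FT, which overlapped.

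FT versus MT asks how tumor-bearing females and males differed. No Kcn gene of 72 had an adjusted p under 0.05 by edgeR (background 0.0%) and 12 had an unadjusted p under 0.05 (background 9.59%). DESeq2 called 1, Kcnn4 (log2 2.46, adjusted p = 0.00627, background 1.64%), with 14 at an unadjusted p under 0.05 (background 13.5%), and limma-voom called 0, with 6 (background 9.02%). All 12 of edgeR passed the fold limit (16.7%, background 9.59%), 8 higher in FT (11.1%, background 8.28%) and 4 lower (5.56%, background 1.31%). The count was 5, 4 and 7 without MT replicates 1, 2 and 3 (backgrounds 4.42%, 3.43% and 5.12%).

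Kcnn4 and Kcnj10 passed these criteria in all 14 alternative fits. Kcnn4 had 11.95, 9.86 and 13.2 CPM in MT and 24.0, 41.4 and 95.2 CPM in FT. All FT libraries were higher, by 5.18-fold (log2 2.37, SE 0.55, adjusted p = 0.506 by edgeR), and by a log2 difference of 1.75 without FT replicate 3. In the 9-library fit, where FT1 is the only FT library and is taken to vary like the other groups, the log2 difference was 0.98. Kcnj10 had 37.2, 47.8 and 37.8 CPM in MT and 93.0, 79.9 and 93.6 CPM in FT. These groups did not overlap, the level was 2.43-fold higher in FT (log2 1.28, SE 0.36, adjusted p = 0.506 by edgeR), and the 9-library fit gave 1.12. Beside them, 3 of 5 satellite glia markers tested passed the same criteria and were higher (Apoe, Fabp7 and Sparc), as were 4 of 10 macrophage and 4 of 6 neutrophil markers; their part in the results was not tested.

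The other inward rectifiers higher in FT were Kcnj16 (log2 3.53, SE 1.40), Kcnj12 (1.78, SE 0.71) and Kcnj8 (2.06, SE 0.83). Kcnj12, a strong rectifier, had 5.79, 6.53 and 5.80 CPM in MT and 6.72, 34.8 and 8.78 CPM in FT, which did not overlap and were far above only in FT2. Kcnmb4 (1.88, SE 0.76), an accessory subunit of the large-conductance channel, had 19.4 CPM in FT2 against 3.84 and 4.74 CPM in the other FT libraries and 2.10 to 3.65 CPM in MT. Kcnq1ot1 (1.98, SE 0.80), a long noncoding RNA that runs antisense to Kcnq1, had 186 CPM in FT2 against 16.8 to 44.9 CPM in MT. Without FT2, Kcnj16, Kcnj12, Kcnmb4, Kcnq1ot1 and the tandem-pore Kcnk5 (1.28, SE 0.55) were not called, and Kcnj16 was at -0.47.

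Lower in FT were the silent subunits Kcnv1 and Kcng4 and the accessory Kcnab1, among others. Kcnv1 had 32.45, 31.1 and 27.5 CPM in MT and 19.5, 10.0 and 15.8 CPM in FT, without overlap (log2 -0.88, SE 0.39). Kcnab1 was at -1.15 (SE 0.45) and Kcng4 at -1.59 (SE 0.70). Call by call, Kcnv1 was lost without MT1, MT2 or MT3, Kcnab1 without any of these or FT3, Kcng4 without MT1, MT2, FT1 or FT3, Kcnj8 without MT2, MT3, FT1 or FT3 (0.98 without FT3), and Kcnj12, Kcnj16, Kcnmb4, Kcnq1ot1 and Kcnk5 without FT2, or without some MT libraries (Kcnk5 also without FT1). Every FT library was above every MT library in 5 Kcn genes (6.94%, background 8.02%), Kcng2, Kcnj10, Kcnj12, Kcnmb4 and Kcnn4, and below in 6 (8.33%, background 9.79%), Kcnab1, Kcng3, Kcnip4, Kcnk18 and Kcnv1 among them.

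Each group stands in more than 1 comparison, so values that recur across comparisons share libraries and are not independent of each other. Over all libraries, Kcnn4 had fitted log2 differences of -0.76 for MT versus MN and 1.17 (SE 0.64) for FT versus FN. It was at 0.49 (SE 0.31) for FN versus MN and 2.37 (SE 0.55) for FT versus MT. Those of Kcnt1, in the same order, were -0.49, 1.07 (SE 0.73), -0.97 (SE 0.37) and 0.63 (SE 0.64, adjusted p = 0.692 by edgeR). Without FN2, FN versus MN gave 0.72 for Kcnn4 and -0.66 for Kcnt1. With FN2, FT2 and FT3 all left out, FT1 was the only FT library. FT versus MT then gave 0.98 for Kcnn4 and 0.04 for Kcnt1. The value of 0.63 for Kcnt1 rested on FT2, and without FT2 it was -0.48 (SE 0.42, adjusted p = 0.576 by edgeR).

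Whether the tumor effect differed between the sexes was tested as (FT minus FN) minus (MT minus MN) over all 12 libraries. None of 75 Kcn genes had an adjusted p under 0.05 by edgeR (background 0.0%), 2 had an unadjusted p under 0.05 (background 1.47%), and DESeq2 and limma-voom also called 0, with 4 (background 2.39%) and 2 (background 4.77%) at an unadjusted p under 0.05. Kcnn4 and Kcnj8 passed the unadjusted criteria with the fold limit (2.67%, background 1.47%). For Kcnn4 the difference of the effects was 1.88 on the log2 scale (SE 0.65, adjusted p = 1 by edgeR) and for Kcnj8 2.25 (SE 1.01, adjusted p = 1). Without FT replicate 3 the values were 1.25 and 1.17, the latter not called, and Kcnj8 was also lost without MN1, MN2, MN3, MT2, MT3, FN1 or FN3. In the 9-library fit the value for Kcnn4 was 0.26 (SE 0.29) and was not called. That of Kcnt1 was 0.70 (SE 0.19, adjusted p = 0.934 by edgeR) with FT1 as the only FT library, and 4 Kcn genes passed the unadjusted p and fold limits there (background 3.68%). The count was 9 without FT replicate 1 (background 8.0%) and 5 without FT replicate 3 (background 4.78%). It was 1 without MN replicates 1, 2 or 3, MT replicates 2 or 3, or FN replicates 1 or 3. Of these, the background was 0.914% without MN1, 1.25% without FN1 and 1.26% without FN3. For the fits without MN2, MN3, MT2 or MT3 it is not given, so their counts are not set against a share of all genes.

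Of 25 genes without a Kcn symbol whose products assemble with, anchor or regulate potassium channels, 22 were tested in MT versus MN, FT versus FN and FN versus MN and 21 in FT versus MT. By the unadjusted p and fold limits none passed in MT versus MN (background 2.3%) or FT versus FN (background 1.19%). Dlg2, a membrane-associated scaffold (log2 -0.95), and Dpp10, an accessory subunit of Kcnd channels (-0.75), were lower in FN than in MN (background 5.73%). When FN2 was left out, Adam22, Dlg2 and Lrrc55 passed as lower and Dpp10 did not (background 8.66%). In that fit 4 of the 22 were lower at an adjusted p under 0.05 by edgeR (background 1.55% in the lower direction). Ank3, the ankyrin that anchors Kcnq channels at the axon initial segment, passed as higher in FT than in MT (2.00, SE 0.82, background 9.59%). It had 89.6, 666 and 84.4 CPM in FT1 to FT3 and 91.6, 87.9 and 89.15 CPM in MT, so FT2 alone was higher. In MT versus MN, Dpp10 had the log2 difference -0.57 (SE 0.10, adjusted p = 0.128 by edgeR), under the fold limit.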

How the data were processed

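Count files of 12 libraries were used, 3 for each of MN, MT, FN and FT. The authors made SMART-seq2 libraries, sequenced them as single reads, aligned these with TopHat2 to mouse mm9 and deposited HTSeq counts per gene symbol (CASAVA 1.8.2 is also named in the submitters' processing notes); other versions, the annotation and the strand setting are not given in the sources used here. The 5 summary lines of each file were left out, and 76.3% to 88.8% of 30825251 to 42495642 counted reads lay on no gene. CPM were taken over the 22609 gene lines. RPKM used exon lengths of GENCODE M1 (mm9), whose symbols matched 95.7% of genes and 94 of the 95 Kcn genes. Genes on the opposite strand overlap Kcnd3, Kcnh7, Kcnj13 and Kcnmb4 (and Kcnq1ot1 runs against Kcnq1), so their reads may be shared if strand was not used.

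Pairs of groups were fitted on their 6 libraries over all genes with edgeR 4.0.16 (quasi-likelihood test, TMM scaling, filterByExpr with a minimum count of 10 and total of 15, Benjamini-Hochberg adjustment) in R 4.3.3, and the difference between the sexes on 12 libraries. The study used DESeq with limits on p, fold change and RPKM. Calls here were an adjusted p under 0.05, or, after the study's own limits, a fold change over 1.5 together with p under 0.05 before adjustment; "background" is the share of all genes tested that met the same rule. Alternatives were DESeq2 1.42.0, limma 3.58.1 (voom with quality weights), fits over 4 groups (12, 10 and 9 libraries), no low-count filter, a mean RPKM over 5, a replicate block, and leaving out each library. The scripts were tested on simulated counts with 200 changed genes. Sums, shares and sequences were made in Python 3.11.15. The Kcn genes, marker lists and partner list were chosen with earlier results of these data known. Genes named with values are those called in a comparison (at most 15 by p), the 2 of each subfamily with the highest mean RPKM in MN if over 1, and members known in sensory neurons or ganglion glia. Some members are not reported here.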

Additional observations from a re-analysis of the deposited data

Results flagged for a closer look

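For 2 potassium channel genes the tumor effect differed between females and males by an interaction test at an unadjusted p under 0.05, and neither passed the correction over all genes (adjusted p = 1 by edgeR for both). For Kcnn4 the difference of the log2 effects was 1.88, with all 3 MT libraries below all MN libraries and with FT3 as the highest FT library at 95.2 CPM; the value ran from 0.26 to 2.26 over 19 alternatives and passed the unadjusted p and fold limits in 18 of them, all but the 9-library fit. For Kcnj8 it was 2.25, with FT1 and FT3 above all FN libraries and FT2 below them; it ran from 1.17 (without FT replicate 3) to 3.11 and passed in 10 of 19.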

How the results depend on the processing

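Counts of Kcn genes called moved with the fit, and the cause was not tested where fewer samples or genes do not show it. The background moved too. By the unadjusted p and fold limits, leaving out libraries gave 1.84% to 3.92% for MT versus MN and 0.315% to 5.49% for FT versus FN. It gave 1.94% to 11.3% for FN versus MN and 3.43% to 29.2% for FT versus MT, highest without FT replicate 1. By limma-voom the background was 4.84%, 4.08%, 11.4% and 9.02% in this order of comparisons. By DESeq2 it was 1.91%, 2.1%, 8.39% and 13.5%, and 2.39% for the difference between the sexes. In 4-group fits of 12 libraries it was 0.426%, 3.82%, 5.57% and 12.1%. For MT versus MN it was 1.84% with 10 libraries and 2.63% with 9, and for FN versus MN 7.17% with 9. Backgrounds with no low-count filter or with a mean RPKM over 5 are not given here. Adjusted p under 0.05: MT versus MN gave 0, but 1 by DESeq2 and 0 to 1 leaving out libraries (1 without MT replicate 3); FN versus MN gave 0, but 6 by limma-voom, 2 with 9 libraries and 0 to 6 leaving out libraries (6 without FN replicate 2); FT versus MT gave 0, but 1 by DESeq2. Unadjusted p under 0.05 with a fold over 1.5: MT versus MN gave 1, but 0 with 12 and with 10 libraries in 4-group fits, 2 with 9, 2 by DESeq2, 8 by limma-voom, 2 with no low-count filter and 1 to 4 leaving out libraries; FT versus FN gave 2, but 5 with 12 libraries, 1 by DESeq2, 1 with a mean RPKM over 5 and 1 to 5 leaving out libraries; FN versus MN gave 4, but 2 with 12 libraries, 9 with 9, 9 by limma-voom, 2 with a mean RPKM over 5 and 0 to 9 leaving out libraries; FT versus MT gave 12, but 6 by limma-voom, 6 with a mean RPKM over 5 and 4 to 18 leaving out libraries; the difference between the sexes gave 2, but 4 by DESeq2, with no low-count filter and with 9 libraries, 1 with a mean RPKM over 5 and 1 to 9 leaving out libraries.

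The replicate numbers did not pair the samples: deviations of same-numbered samples correlated at 0.03 to 0.20 for MT with MN, -0.35 to 0.57 for FT with FN, -0.07 to 0.10 for FN with MN and -0.25 to 0.04 for FT with MT. A replicate block gave 3 in place of 1 by the unadjusted rule for MT versus MN (background 2.39%) and 0 in place of 2 for FT versus FN (background 0.738%). It gave 1 in place of 2 for the difference between the sexes (background 1.03%), and changed no other count by over 1.5 times.

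Named genes with a call at an unadjusted p under 0.05 and a fold over 1.5 in a comparison changed direction there in 7 cases, all of them Kcnj16, which was high in FT2. Kcnj16 for FT versus FN was at -0.49 by limma-voom, -1.06 with 10 libraries, -0.38 with 9 and from -0.51 (without FT replicate 2) to 4.12 leaving out libraries, and for FT versus MT at -0.01 by limma-voom, -0.47 with 10 libraries and from -0.47 (without FT replicate 2) to 4.11 leaving out libraries. Of the other values of these genes under alternatives, 175 kept direction and call and 94 kept direction only. Kcnt1, not called for FT versus MT (0.63), was at -0.48 there without FT replicate 2.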
